A study of Homo sapiens with 197 samples.

Results

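The 5 wells described here were IMR90 cells infected with ACVR1, AMHR2, LIMK1, LIMK2 or ILK. ACVR1 and AMHR2 are receptors of the TGF-beta family, LIMK1 and LIMK2 are the LIM kinases, and ILK is the integrin-linked kinase. Wells were chosen by the kinase name of the lane and not by any measured value. They are 5 wells, set against the 178 other kinase wells of the series. The HK1 lane and the second lanes of PIK3CG and PTK2 were left out.

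IMR90 is a line of non-transformed human lung fibroblasts. Each well of these cells was infected with a retrovirus that carried 1 kinase, activated by an added myristoylation signal, which brings a protein to membranes. Total RNA was taken 4 days after infection and counted with Nanostring probes, which are color-barcoded and are counted directly, without amplification. The study asked whether such a kinase can switch on genes that are normally restricted to testis, placenta or a few other tissues. The wells of the 5 kinases and the other kinase wells thus shared the cell line, the kind of construct, the time and the assay, and differed in the kinase. The 3 control lanes, which came from 2 IMR90 controls, are labelled as cells with the empty vector. The study's text also speaks of non-infected IMR90 cells, and whether these lanes were infected was not settled here. Every kinase had 1 well and 1 lane, so that a value of a single well has no replicate check. Nothing in the labels says which wells shared a plate or a day.

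TGF-beta family ligands bind a complex of type I and type II receptor kinases. The type I receptors phosphorylate SMAD proteins, which enter the nucleus, and the receptor complex also acts through MAP3K7, better known as TAK1. ACVR1 is a type I receptor that responds to BMPs and activins, and AMHR2 is the type II receptor for anti-Müllerian hormone. LIMK1 and LIMK2 phosphorylate cofilin, a protein that severs actin filaments. ILK is a pseudokinase that couples integrins to the actin cytoskeleton at adhesion sites. The panel had 1 gene known to respond to TGF-beta, ADAM12, which encodes a membrane-bound metalloprotease. The receptor wells were therefore set against the MAP3K7 well for this gene.

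The promoter of ADAM12 is shown because it is the gene on which the wells of the TGF-beta pathway are compared. The stretch holds the 250 bases before the start of the gene in RefSeq, GRCh38.p14, minus strand, chr10:126388478-126388727. The capitals mark the reverse complement of CAGAC, the short element bound by SMAD proteins.
ADAM12: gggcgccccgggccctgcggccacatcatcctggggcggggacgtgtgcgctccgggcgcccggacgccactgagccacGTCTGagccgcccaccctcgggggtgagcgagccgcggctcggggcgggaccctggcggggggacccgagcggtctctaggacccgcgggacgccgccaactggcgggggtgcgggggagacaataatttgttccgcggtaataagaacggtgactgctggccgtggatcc
Its capitals begin at base 80 of the 250, counted from the 5′ end. CAGAC, searched on both strands, was in 13345 of 35116 promoters of this length. The AP-1 motif TGAGTCA was in 1476 of them and the palindromic SMAD element GTCTAGAC in 64 (0.182%), and neither had a match in this window.

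The Nanostring panel held 42 tissue-restricted genes, 15 other endogenous rows, 4 housekeeping genes, 6 positive and 8 negative controls. Counts were scaled by the positive controls and then by PGK1, TBP and TUBB2A, and the scaled value is called the normalized count. The 57 endogenous rows and B2M, 58 rows in all, were analysed. A Z-score here is the log2 of the normalized count plus 1, minus the mean over the 178 other kinase wells, divided by their SD. A row was called above background where its count passed the mean + 2 SD of the 8 negative controls of its lane. Lane totals were between 231004 and 307757 counts in the 5 wells. The median of the other kinase wells was 158845 (29629 to 340763), and the control lanes lay between 132257 and 152599. All 5 wells were thus above that median. Between 3 and 7 of the 42 tissue-restricted genes were above background in the 5 wells, against a median of 6 in the other kinase wells and 3 to 5 in the control lanes. No probe of the panel is named for any of the 5 kinases. The study describes a probe to the tag shared by all kinase constructs. It reports that the tag was found for every kinase and was absent from non-infected IMR90 and SW39 cells. In the counts used here the row named MyrFlag did not separate the kinase wells from the control lanes. The RNA of the constructs could thus not be checked again with this row. No list of fibroblast markers was on the panel, so the cell type was not checked.

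ADAM12 was low in both receptor wells and high in the MAP3K7 well. In ACVR1 the count was 57 (95% Poisson interval 43.2 to 73.9), which is 42.2 after normalization. In AMHR2 it was 54 (40.6 to 70.5), which is 52.2 after normalization. The MAP3K7 well had a count of 686 (636 to 739) and a normalized count of 504. The MAP3K7 well was thus 11.9 times above ACVR1 (95% interval from counting error 9.10 to 15.9) and 9.65 times above AMHR2 (7.31 to 12.98). These intervals cover counting error only, since each kinase had 1 lane.

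The LIM kinase and ILK wells were also low for ADAM12. The normalized count was 35.5 in LIMK1 (47 raw), 48.5 in LIMK2 (52 raw) and 47.2 in ILK (64 raw). MAP3K7 was above them by ratios of 14.2 (10.5 to 19.5), 10.4 (7.83 to 14.1) and 10.7 (8.25 to 14.0). In order, ADAM12 was highest in AMHR2, followed by LIMK2, ILK, ACVR1 and LIMK1. No neighbours in this order were separated. The widest gap, AMHR2 over LIMK1, was a ratio of 1.47 (0.974 to 2.22), and the intervals of all 10 pairs included 1.

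The level of ADAM12 in the 5 wells was that of kinase wells in general. The other kinase wells without MAP3K7 ranged from 26.2 to 103.2 normalized counts, with a median of 44.8 and quartiles at 39.4 and 51.4. PAK4, a kinase that phosphorylates LIM kinases, had 44.8 (21 raw), and TESK1, which also phosphorylates cofilin, had 43.98 (29 raw). The control lanes had 30.8, 35.01 and 46.8. All 5 wells lay inside the range of the other kinase wells, and 3 of them, AMHR2, LIMK2 and ILK, were above the highest control lane. That lane, with 46.8, lay between the median and the upper quartile of the other kinase wells without MAP3K7. ADAM12 was above background in all 5 wells, with background levels of 19.5 to 27.3 counts, so it was measured in each.

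**Figure D1:**
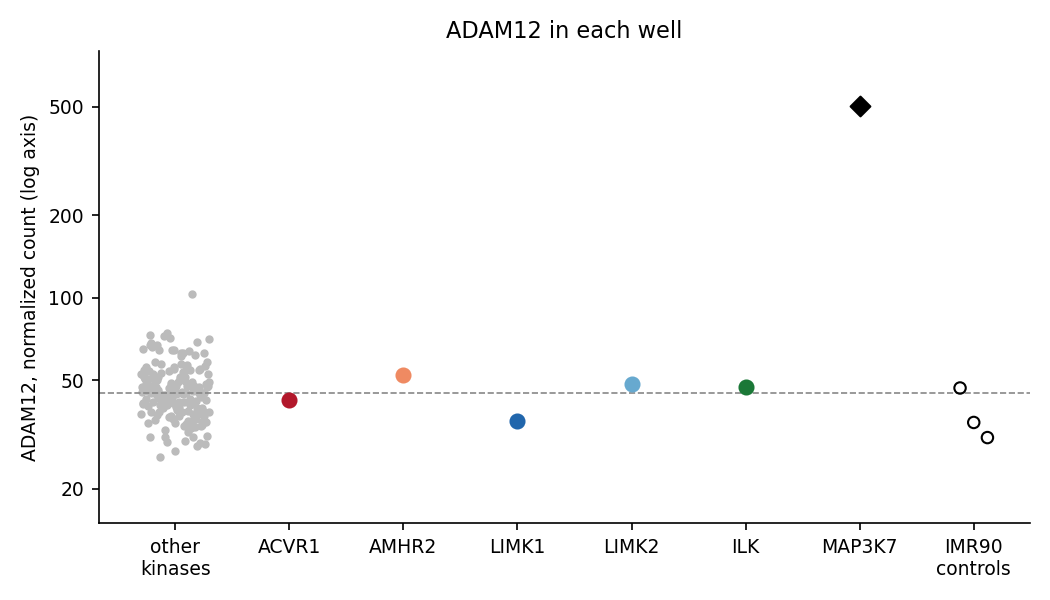
Normalized count of ADAM12 (log axis) in each of the 5 wells, in MAP3K7 (diamond), in the other kinase wells (grey) and in 3 IMR90 control lanes (open circles), with 1 point per lane and the dashed line at the median of the other kinase wells. The 5 wells sit between 35.5 and 52.2, within the grey points, and MAP3K7 stands at 504.

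In a fit across all 58 rows with edgeR's quasi-likelihood test, ADAM12 did not pass in any comparison. In this fit the wells of a set are taken as samples of 1 group, although they carry different kinases, and most of the spread comes from the other kinase wells. The log2 fold change of the receptor wells against the other kinase wells was -0.06 (SE 0.37, edgeR adjusted p = 0.9505). Its 95% interval ran from -0.80 to 0.68, and the MAP3K7 well lay 3.43 above the mean of the other kinase wells on the log2 scale. MAP3K7 was itself among the other kinase wells, both in this fit and in that mean. The value without MAP3K7 and PIP5K2A is given in the closing section. The LIM kinase wells had a log2 fold change of -0.23 (SE 0.38, edgeR adjusted p = 0.989), with an interval from -0.98 to 0.52, and -0.019 without LIMK1. The receptor wells against the LIM kinase wells gave 0.17 (SE 0.53, edgeR adjusted p = 0.925), with an interval from -0.87 to 1.21. The size of the receptor value did not settle its sign, which turned with the normalization, the tool and the wells left out.

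Across the panel, none of the 290 pairs of a well and a row had a Z-score beyond 2.5 in either direction. Over the other kinase wells, 0.426% of 10324 pairs were above 2.5 and 0.949% below -2.5, and 73 of the 178 wells had at least 1 such pair. The count of 0 in the 5 wells was thus under both shares, and the difference was not tested. The highest value was ROPN1 in AMHR2, with 2.10, and the lowest was STK31 in ACVR1, with -2.06. STK31, a testis-restricted kinase gene, had 8 counts in ACVR1, below the background level of 23.3 counts of that lane. The median Z-score over the 58 rows was 0.01 in ACVR1, 0.20 in AMHR2, -0.57 in LIMK1, 0.14 in LIMK2 and -0.46 in ILK.

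**Figure D2:**
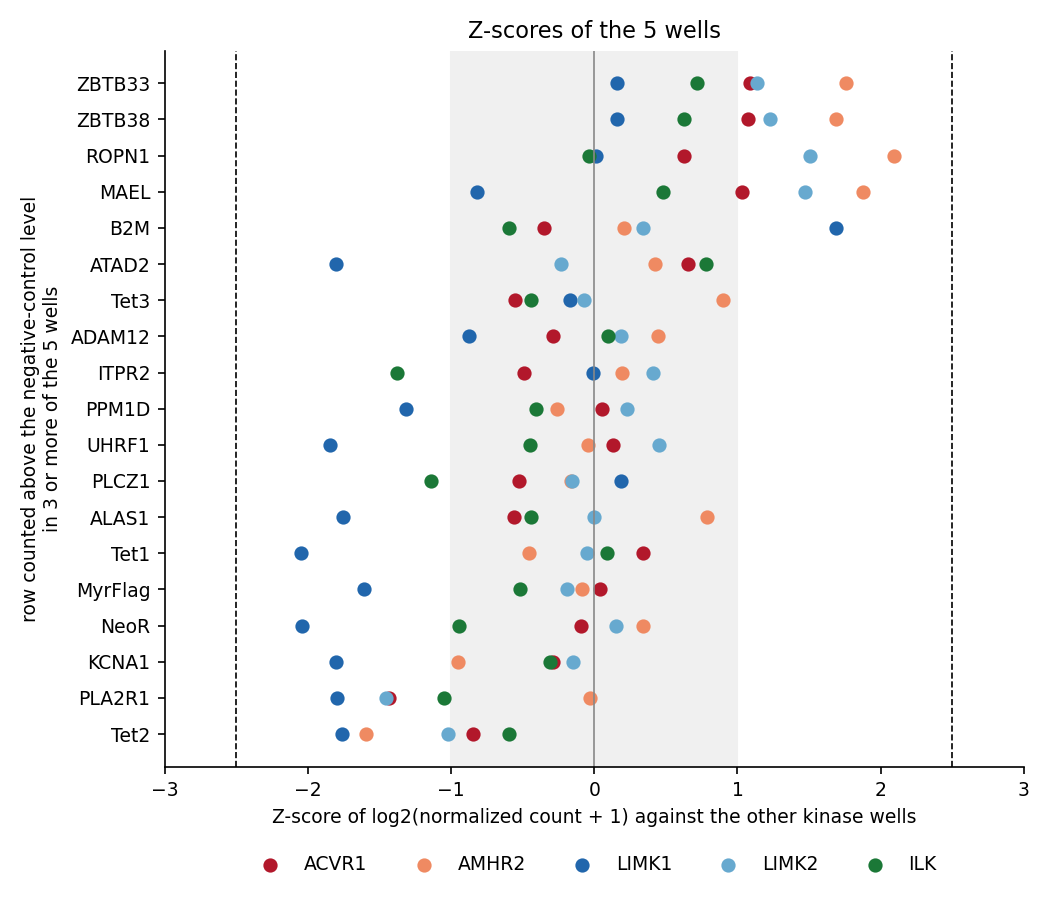
Z-score of the log2 normalized count against the 178 other kinase wells (horizontal axis) for the 19 rows counted above background in 3 or more of the 5 wells, with 1 point per well, the grey band from -1 to 1 and dashed lines at -2.5 and 2.5. All points lie between -2.05 and 2.10, LIMK1 is the lowest well for most rows of the lower part, and AMHR2 is highest for ROPN1, MAEL and the rows named ZBTB33 and ZBTB38. Rows were picked by counts in the 5 wells themselves, and ROPN1 and MAEL entered through ACVR1, AMHR2 and LIMK2 only.

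The wells differed in how their rows spread within these limits. Over the other kinase wells, 16.1% of pairs had a Z-score above 1 and 15.5% below -1. AMHR2 had 16 of 58 rows above 1 and 5 below -1, and LIMK2 had 8 above and 4 below. ACVR1 had 4 above and 4 below. LIMK1 had 2 above and 17 below, and 26 of the 178 other wells had at least 17 below. ILK had 0 above and 9 below. No p-value belongs to these counts, since each well is 1 lane.

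In the fits over wells, 0 of 58 rows passed an adjusted p of 0.05 with edgeR in any of the 4 comparisons (0%). Before adjustment, 9 rows had p under 0.05 with edgeR for the 5 wells against the other kinase wells, 4 for the receptor wells, 2 for the LIM kinase wells and 0 for receptor against LIM kinase wells. DESeq2 and limma also called 0 rows in each, with 7, 2, 2 and 0 rows under 0.05 before adjustment by DESeq2 and 5, 2, 2 and 0 by limma. The smallest edgeR adjusted p was 0.265, 0.427, 0.951 and 0.921 in these comparisons.

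The tissue-restricted genes of each function were near the other kinase wells. For the 5 wells against the other kinase wells, the median log2 fold change was -0.12 over the 42 genes and -0.12 over all 58 rows, with 13 of 42 and 18 of 58 above 0. None of 5 MAGE genes passed the test (median -0.16), and these encode tumor antigens that are silent outside the germ line. None of 7 other cancer/testis antigens passed (median -0.33, from -0.63 to 0.40), a list that held PRAME, CTAG1B, SSX and XAGE genes. No MAGE gene and no gene of this list was above background in any of the 5 wells. The values of both lists thus rest on counts under background. None of 7 germ cell RNA-binding and piRNA genes passed (median -0.21), the highest being MAEL, a protein of the piRNA pathway, with 0.67 (SE 0.34, edgeR adjusted p = 0.301). None of 7 genes of sperm structure and fertilization passed (median -0.21), the highest being ROPN1, a protein of the sperm flagellum, with 0.58 (SE 0.29, edgeR adjusted p = 0.301).

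The other lists gave the same count of 0. None of 7 germline chromatin, transcription and meiosis genes passed (median -0.03). In this list ATAD2, a chromatin ATPase with a bromodomain that was well above background, had -0.02 (SE 0.12, edgeR adjusted p = 0.925). None of 6 genes of enzymes passed (median -0.04), and ALAS1, the first enzyme of heme synthesis, had -0.09 (SE 0.10, edgeR adjusted p = 0.622). None of the 8 rows named for DNA methylation or for methyl-CpG binding passed (median -0.06, from -0.44 to 1.198). For the receptor wells the 42 genes had a median of -0.02, with 21 above 0, and for the LIM kinase wells a median of -0.13, with 14 above 0.

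ADAM12, ALAS1 and ATAD2 were the tissue-restricted genes above background in all 5 wells. Summed over the 39 other tissue-restricted genes, the normalized count was 330 to 505 in the 5 wells, above the control lanes (255 to 306) and around the median of 430 in the other kinase wells. Most of these 39 genes were under background in each of the 5 wells, so the sum holds mostly counts under background. ALAS1 had normalized counts of 444 in ACVR1, 548 in AMHR2, 369 in LIMK1, 485 in LIMK2 and 453 in ILK. The median of the other kinase wells was 481, and the control lanes lay between 444 and 532. LIMK1 was the lowest of the 5, with only 5 kinase wells below it, and AMHR2 the highest, with rank 37. ATAD2 had 199 in ACVR1, 190 in AMHR2, 121.8 in LIMK1, 166.8 in LIMK2 and 204 in ILK, against a median of 178 in the other kinase wells and 161.3 to 229 in the control lanes. LIMK1 was again the lowest, with 9 kinase wells below it. MAP3K7 (123.3) and PAK4 (113.1) were about as low.

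The row named ZBTB33 spanned a wide range over the kinase wells and was highest of all of them in AMHR2. Its normalized count was 53693 in ACVR1, 112422 in AMHR2, 19207 in LIMK1, 56584 in LIMK2 and 35597 in ILK. In AMHR2 it made up 37.8% of all counts of the lane and had rank 1 of all kinase wells. The other kinase wells ranged from 146.8 to 94758 with a median of 22336, so that 4 of the 5 wells were above the median and LIMK1 was below it. The control lanes had 8.8 to 18.3, which is under background. SW39 cells, a transformed derivative of IMR90, had 6.2 to 6.9, and mixed human RNA had 9.5 to 31.7. The row was thus high in cells with a kinase and low in every other kind of sample.

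**Figure D3:**
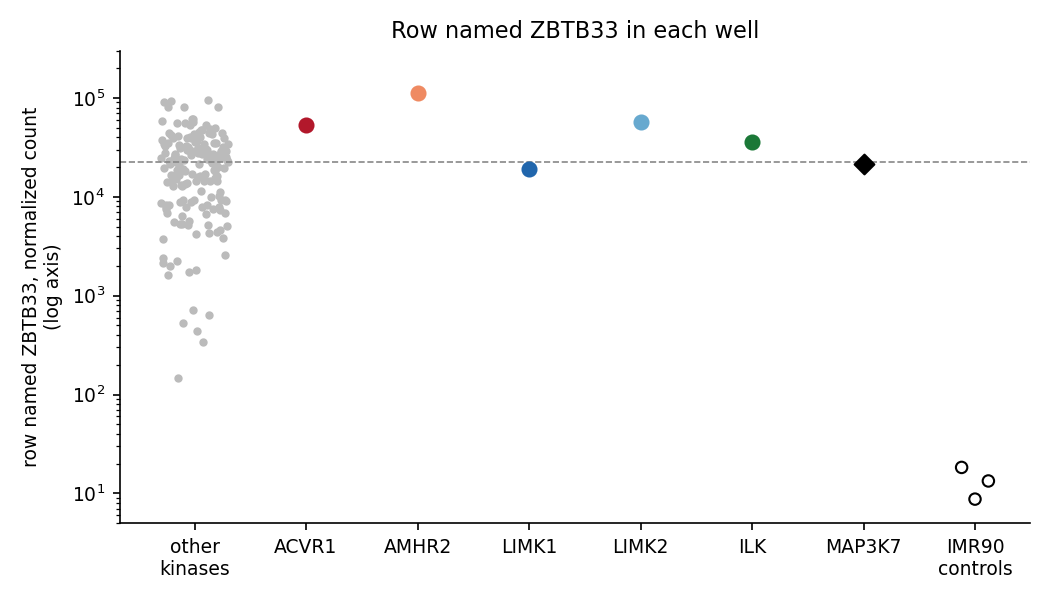
Normalized count of the row named ZBTB33 (log axis) in each of the 5 wells, in MAP3K7 (diamond), in the other kinase wells (grey) and in 3 IMR90 control lanes (open circles), with 1 point per lane and the dashed line at the median of the other kinase wells. AMHR2 is above every other well with 112422, LIMK1 is near the median, and the control lanes lie between 8.8 and 18.3.

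The log2 fold change of this row was 1.198 for the 5 wells (SE 0.50, edgeR adjusted p = 0.267) and 1.78 for the receptor wells (SE 0.73, edgeR adjusted p = 0.427). Without AMHR2 these values were 0.77 and 1.15. Over the kinase wells the row named ZBTB38 went with it, but not in the other samples, where it had 1591 to 7039 in the control lanes, 5066 to 6566 in SW39 and 4.2 to 8.1 in mixed human RNA. It had 29610 in ACVR1, 58632 in AMHR2, 10620 in LIMK1, 35066 in LIMK2 and 18002 in ILK, against a median of 11963 in the other kinase wells. The ratio of both rows was 1.61 to 1.98 in the 5 wells and 1.37 to 3.2, with a median of 1.80, in the other kinase wells. Over the kinase wells, the 5 included, their log2 values had a correlation of 0.99, as a description over wells that share the normalization.

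The row named MyrFlag did not separate infected from control cells. It had 641 in ACVR1, 630 in AMHR2, 511 in LIMK1, 621 in LIMK2 and 593 in ILK. The median of the other kinase wells was 638 and the control lanes lay between 627 and 714. SW39 cells had 2526 to 2841 and mixed human RNA 1196 to 1534, above the highest other kinase well (870). The study reports no tag in SW39 cells, so this row did not behave as the tag that the study describes. Whether each of the other rows outside the tissue-restricted genes holds the transcript of its name could not be checked here. All 15 of these rows are therefore called by name and given no role. In the same way, the row named DNMT1 had 12 to 18 raw counts in the 5 wells, under the background level of each lane.

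Among the tissue-restricted genes above background, ROPN1 and MAEL had the highest Z-scores in AMHR2 and LIMK2. ROPN1 had raw counts of 24 in ACVR1, 39 in AMHR2, 17 in LIMK1, 30 in LIMK2 and 17 in ILK. Normalized, these are 17.8, 37.7, 12.9, 27.96 and 12.5, against a median of 12.9 in the other kinase wells and 1.9 to 11.2 in the control lanes. AMHR2 had rank 3 of the kinase wells and LIMK2 rank 14, and only these wells and ACVR1 were above background, which was 27.3, 19.5 and 23.3 counts.

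MAEL, too, was highest in AMHR2, followed by LIMK2 and ACVR1. Its raw counts were 24 in ACVR1, 31 in AMHR2, 7 in LIMK1, 25 in LIMK2 and 17 in ILK, or 17.8, 29.9, 5.3, 23.3 and 12.5 normalized. The median of the other kinase wells was 9.9, and MAEL was above background in only 17 of these 178 wells. AMHR2 had rank 7 and LIMK2 rank 16. MAGEA12 and CTAG1B, both cancer/testis antigens, had their highest levels of the 5 wells in AMHR2 too, with 26.1 and 17.4 normalized counts, but neither was above background in any of the 5 wells. The Z-score of MAGEA12 in AMHR2, 1.92, lay between those of ROPN1 (2.10) and MAEL (1.88).

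These weak rows moved with the row named ZBTB33. Over the 178 other kinase wells, 9 rows other than ZBTB38 had a correlation of 0.5 or more with it, from 0.52 to 0.79 on the log2 scale. They were MAEL, CTAG1B, MAGEA12, PIWIL1, ROPN1, C10ORF82, SSX1 and the rows named ZBTB4 and PuroR, and were picked after their values were seen. The wells share the normalization, and the median raw count of each row was 12 or less. Summed over the 9 rows, the normalized count was 108.1 in ACVR1, 181.6 in AMHR2, 55.97 in LIMK1, 137.9 in LIMK2 and 78.1 in ILK. The other kinase wells ranged from 27.02 to 245, with a median of 79.8, and the control lanes had 36.96, 53.4 and 71.2. All 9 rows were above the median of the other kinase wells in AMHR2 and in LIMK2, 8 in ACVR1, 5 in ILK and 0 in LIMK1. Of all 58 rows, 31 were above the log2 mean of the other kinase wells in AMHR2, 34 in LIMK2 and 30 in ACVR1. ILK had 14 and LIMK1 had 11 of the 58, so both were low for most rows of the panel. The TESK1 well, with 55242 in the row named ZBTB33, had a sum of 172.9, and the MAP3K7 well, with 21232, had 57.3. The part of the row named ZBTB33 in the values of ROPN1 and MAEL was not tested.

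**Figure D4:**
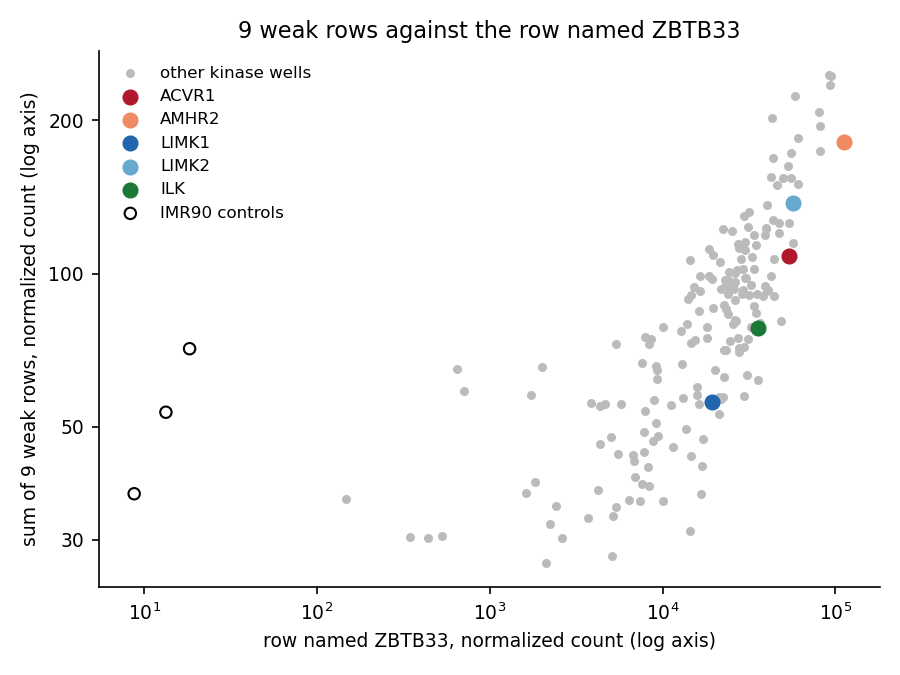
Sum of the normalized counts of 9 weak rows (vertical log axis) against the normalized count of the row named ZBTB33 (horizontal log axis), with 1 point per lane for the 178 other kinase wells (grey), the 5 wells (colors) and 3 IMR90 control lanes (open circles). The sums of the other kinase wells run from 27.02 to 245 and the highest ones lie at high levels of the row named ZBTB33, and AMHR2 lies at the right end with 181.6. The 9 rows were picked for their correlation with that row over the same 178 wells, so the rise of the grey points follows from the choice.

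LIMK1 stood apart from the other 4 wells by B2M and PGK1. B2M, the light chain of MHC class I, had 92995 raw and 70331 normalized counts in LIMK1, rank 16 of the kinase wells. It had 36799 in ACVR1, 43971 in AMHR2, 45885 in LIMK2 and 34058 in ILK, against a median of 39377 in the other kinase wells and 34514 to 42381 in the control lanes. The LIM kinase wells did not pass the test for B2M (log2 fold change of 0.42, SE 0.33, edgeR adjusted p = 0.951), and the value was 0.080 without LIMK1 and 0.076 with blocks of 12 consecutive sample numbers as a term. PGK1, a glycolytic enzyme and a gene of the normalization, had a Z-score of 2.02 in LIMK1 when scaled by the positive controls alone, rank 10, while TBP and TUBB2A had 0.89 and 0.75.

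Several abundant rows of LIMK1 were low. The row named Tet1 had 222 normalized counts in LIMK1 (Z-score -2.05), against 308 to 362 in the other 4 wells and a median of 347 in the other kinase wells. The row named NeoR had 124.8 (Z-score -2.04), against 153.3 to 195 and a median of 180.9. The row named UHRF1 had 552 (Z-score -1.85), against 725 to 865 and a median of 797. Scaled by the positive controls only, the Z-scores of the rows named Tet1 and NeoR in LIMK1 were -0.97 and -0.72.

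Wells with neighbouring sample numbers resembled LIMK1. In blocks of 12 consecutive sample numbers, LIMK1 (number 73) lay in the block 73 to 84, whose median B2M of 71520 was the highest of 17 blocks. The median of the row named Tet1 in this block, 230, and that of the row named NeoR, 132.8, were the lowest. The block's median of PGK1, 11340 normalized counts, was the highest too, with 11725 in LIMK1. ALAS1 and the row named UHRF1 had medians of 400 and 621 in the other 11 wells of the block. Outside it the medians were 485 and 812. For each of both rows, 10 of these 11 wells were above LIMK1. Against the other 11 wells of its block LIMK1 was in the middle for B2M, with 6 wells above and 5 below. With log2 values centred on the block, its Z-scores were -0.25 for B2M, -0.15 for the row named Tet1 and -0.49 for the row named NeoR. The sample number comes from the titles, and what its order stands for is not given in the sources used here.

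**Figure D5:**
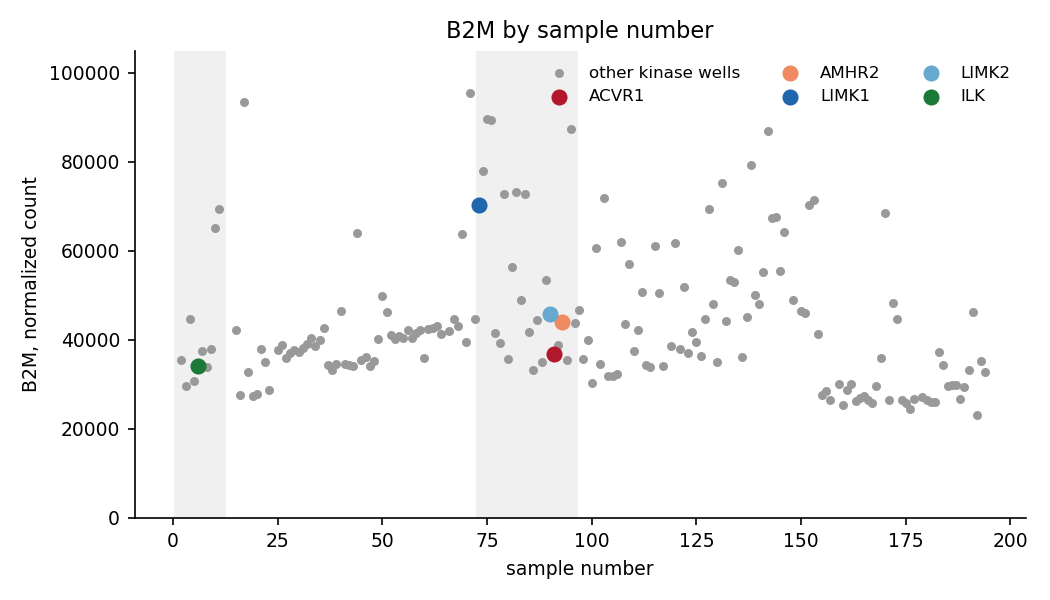
Normalized count of B2M (vertical axis, from 0) against the sample number of the well (horizontal axis) for the 178 other kinase wells (grey) and the 5 wells (colors), with grey bands over the blocks 1 to 12, 73 to 84 and 85 to 96 that hold the 5 wells. LIMK1 with 70331 lies among other high wells of its block, and the other 4 wells lie between 34058 and 45885.

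ACVR1 (91), AMHR2 (93) and LIMK2 (90) lay in the block 85 to 96, and ILK (6) and MAP3K7 (5) in the block 1 to 12. The median of the row named ZBTB33 in the block 85 to 96, 40888, was the highest of the 17 blocks. ACVR1, AMHR2 and LIMK2 were themselves counted in that median. Over the 9 other wells of the block it was 24461, against 22336 over the 178 other kinase wells. Over the other kinase wells, 9.6% of pairs of a well and a row were above every other well of their block and 9.59% below. AMHR2 was above the 9 block wells outside the 5 for 21 of 58 rows, LIMK2 for 14, ACVR1 for 4, ILK for 3 and LIMK1, against 11 wells, for 0. Of the 21 rows of AMHR2, 10 were the rows named ZBTB33 and ZBTB38 or among the 9 weak rows above, and of the 14 of LIMK2, 8 were. LIMK1 was below all 11 block wells for 6 rows, ADAM12 among them (35.5 against 35.8 to 56.1), AMHR2 and ACVR1 for 2 each, ILK for 1 and LIMK2 for 0.

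Within its block, ROPN1 in AMHR2 was 37.7 against 3.7 to 19.7 in the 9 block wells, and in LIMK2 it was 27.96. With the block as a term in the edgeR fit, ROPN1 had a log2 fold change of 0.90 for the 5 wells (SE 0.26, edgeR adjusted p = 0.0440), the only row called in that fit. Without AMHR2 it was no longer called (adjusted p = 0.939), nor without LIMK2 (adjusted p = 0.172), with edgeR and the block kept. In the receptor wells it was 1.28 (SE 0.39, edgeR adjusted p = 0.0649). ROPN1 was above background in only 29 of the 178 other kinase wells, and it was under background in LIMK1 and ILK. Most counts behind these fold changes of ROPN1 thus lay under background. With values centred on the block, ROPN1 in AMHR2 had a Z-score of 2.51, the only one of 290 pairs beyond 2.5. The row named ZBTB33 of AMHR2 was above its block as well, with 112422 against 3720 to 56563. ADAM12 in AMHR2 was 52.2 against 31.1 to 55.9 in the same wells, and in ACVR1 42.2.

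Of the 10 pairs among the 5 wells, ACVR1 and ILK were the nearest to each other, and all 4 pairs that held LIMK1 were the farthest apart. Both receptor wells were nearer to LIMK2 than to each other. Over the 15 rows with a median count above background, without the rows named ZBTB33 and ZBTB38, the root mean square log2 difference was 0.20 between ACVR1 and AMHR2. It was 0.15 between LIMK2 and each of them, 0.144 between ACVR1 and ILK and 0.25 between ILK and each of AMHR2 and LIMK2. LIMK1 was 0.432 from LIMK2, 0.438 from AMHR2, 0.473 from ACVR1 and 0.485 from ILK, so LIMK2 was the nearest of the 4. The median distance of LIMK1 to all other kinase wells was 0.531. The median over all 16653 pairs of kinase wells was 0.38, and it was 0.27 for pairs in the same block and 0.39 for pairs in different blocks. The nearest well to ACVR1 was RIOK2, at 0.094, and the nearest to LIMK1 was MAPK13, at 0.096. These distances are a description, with 1 lane per kinase and no test.

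ILK had the fewest tissue-restricted genes above background of the 5 wells, namely 3, and 0 rows with a Z-score above 1. Its lowest rows above background were the rows named ITPR2 (527 against a median of 663, Z-score -1.38) and PLA2R1 (441 against 520, Z-score -1.05). The row named PLA2R1 was under the median of the other kinase wells in all 5 wells, with 417 in ACVR1, 512 in AMHR2, 396 in LIMK1 and 416 in LIMK2. Its log2 fold change for the 5 wells was -0.25 (SE 0.10, edgeR adjusted p = 0.265). The row named Tet2 was also under its median of 695 in all 5, from 558 in LIMK1 to 643 in ILK, with -0.21 (SE 0.08, edgeR adjusted p = 0.265). Neither passed the test. With the block as a term the values shrank to -0.035 for PLA2R1 and -0.054 for Tet2, with TMM to -0.133 and -0.095, and with positive controls only to -0.154 and -0.106. The control lanes had 450 to 532 for PLA2R1 and 797 to 838 for Tet2. The 5 wells were thus below all control lanes for Tet2, as was the median of the other kinase wells.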

How the data were processed

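The series held 197 lanes, of which 183 kinase wells were compared. Groups were taken from the titles and labels. The authors deposited raw counts per probe and lane, as the instrument gave them, and a normalized table, whose signal was the count times 1 factor per lane and, in 8 lanes, the count itself. That table was used as an alternative only, and all its columns had a sample. RefSeq (GRCh38.p14) held 55 of the 61 probe accessions. The files' names were kept.

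Normalized counts and Z-scores (pseudocount of 1) were obtained with Python 3.11.15, using scipy 1.17.1, pandas 2.3.3 and numpy 2.4.6. Fits used R 4.3.3 with edgeR 4.0.16 on raw counts with the lane factors as offsets, with limma 3.58.1 and DESeq2 1.42.0 tried as well. Benjamini-Hochberg adjustment covered the 58 rows, and the standard errors of edgeR were derived from its F statistic. All p-values measure the spread between wells, which carry different kinases. Intervals on counts are Poisson or Clopper-Pearson intervals at 95%. Code was tested on simulated data.

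Genes named were ADAM12, ALAS1, ATAD2, the housekeeping genes, the rows named ZBTB33 and MyrFlag, rows past a threshold, and the 3 highest and 3 lowest rows above background of each well. STK31, MAGEA12, CTAG1B, DNMT1 and the weak rows that go with the row named ZBTB33 were named after their values were seen. The members, lists and rules were chosen with earlier results of these data known. Alternatives covered normalization, tool, low counts, pseudocount, blocks and wells left out. The fits of receptor against LIM kinase wells under them, and block fits with a well left out, were a later addition, made with the data in view.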

Additional observations from a re-analysis of the deposited data

How the results depend on the processing

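The count of 0 rows called with edgeR was the same under every alternative tried for the receptor wells, the LIM kinase wells and receptor against LIM kinase wells. For the 5 wells it was 1 with the block of 12 sample numbers as a term (ROPN1, adjusted p = 0.0440) and 0 under the other alternatives. With the block as a term and 1 well left out in turn, a setting added after the data were seen, it was 0 to 1. It was 0 without AMHR2 or LIMK2, and ADAM12 (0.040) and the row named PLA2R1 (0.0086) turned above 0 without ILK. Rows with p under 0.05 before adjustment fell from 9 to 3 without AMHR2, and in the receptor wells from 4 to 1. Of the 290 Z-scores, 1 passed 2.5 with blocks centred (ROPN1 in AMHR2, 2.51) and 0 under the other alternatives. The log2 fold change of ADAM12 in the receptor wells turned above 0 with positive controls only (0.00035), limma (0.032), the block term (0.12) and without MAP3K7 and PIP5K2A (0.027). It was between -0.22 without AMHR2 and 0.087 without ACVR1. Receptor against LIM kinase wells, it was between -0.042 without LIMK1 and 0.40 without LIMK2. The cause of these turns was not tested. The ratio of MAP3K7 to the receptor wells for ADAM12 was between 10.7 and 12.4.

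With counts under background set to the background level, STK31 in ACVR1 had a Z-score of -0.91 and MAEL in LIMK2 0.15. STK31 was under background in ACVR1 (8 counts against 23.3), whereas MAEL was above it in LIMK2 (25 against 19.5), where the setting also raised low values of the other wells. The row named PLA2R1 in LIMK2 was 0.04 with blocks centred. Most tissue-restricted genes lay under background, and a small change in them was not detectable at this depth. ROPN1, the row called with the block as a term, was itself under background in most of the other kinase wells. No paired analysis was possible because each kinase had 1 well and the wells share no replicate number that pairs them.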
